A study of Homo sapiens with 4 samples.

Results

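The cadherin switch and the transcription factors behind it were followed through 9 genes, taken by name from a table of 57815 gene rows: E-cadherin (CDH1), N-cadherin (CDH2), vimentin (VIM), ZEB1, ZEB2, SNAI1, SNAI2, TWIST1 and TWIST2. All 9 had exactly 1 row, and levels are in FPKM, fragments counted per length of transcript and per size of the library, as the authors computed them. The data are 4 RNA-seq libraries of poly-A RNA from MKN1 and AGS, established human gastric cancer cell lines. Cells of each line were transfected with Lipofectamine 2000 and an siRNA against HOXB9, a homeobox factor of the HOXB cluster (siHOXB9, genotype given as a HOXB9 knockdown), or a scrambled siRNA (siScramble, genotype given as WT), with 1 library for each line and siRNA. All 4 groups therefore share the transfection, and no group has a replicate.

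In epithelial-mesenchymal transition (EMT), epithelial cells lose the E-cadherin junctions that hold them together and take up N-cadherin and the intermediate filament vimentin. ZEB, SNAI and TWIST proteins drive this programme. The zinc fingers of ZEB and SNAI proteins bind E-box sequences of the CAGGTG type in epithelial promoters, CDH1 among them, and recruit corepressors, while TWIST proteins are basic helix-loop-helix factors that act with E-proteins. In epithelial cells the miR-200 family of microRNAs lowers ZEB1 and ZEB2, and the ZEB proteins in turn repress the miR-200 genes. Loss of E-cadherin is a hallmark of diffuse gastric cancer.

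HOXB9 itself was at 0.218 FPKM with siHOXB9 and 1.14 FPKM with siScramble in MKN1. In AGS it was at 4.44 FPKM with siHOXB9 and 16.4 FPKM with siScramble. The targeted transcript was thus lower with siHOXB9 in both lines, but its level in MKN1 was low. Depth recovered from low values was about 10630000 to 12990000 fragments per library. With this depth the MKN1 values of HOXB9 correspond to an estimated 5.37 and 30.4 fragments. Its log2 change with 1 FPKM added was -0.81 in MKN1, under 2-fold on that scale, and -1.68 in AGS. Of the keratins of simple epithelia, KRT8 and KRT18 were abundant in every library, at 1077 to 1880 FPKM and 654 to 837 FPKM. All 7 epithelial markers checked reached 1 FPKM in all libraries, with sums of 2046 and 1795 FPKM in MKN1 (siHOXB9 and siScramble) and 5053 and 4456 FPKM in AGS. KRT8 and KRT18 made up most of the MKN1 sums. In MKN1 EPCAM was at only 2.70 and 2.14 FPKM, the keratin KRT19 at 2.66 and 2.02 FPKM and CLDN7 at 3.21 FPKM in both libraries. The leukocyte markers PTPRC and CD3E did not exceed 0.0183 FPKM, while the 6 leukocyte markers summed to 15.5 and 14.2 FPKM in MKN1 and to 2165.97 and 2199.98 FPKM in AGS, nearly all of it LYZ (lysozyme, 2163 and 2197 FPKM). The 4 endothelial markers with a row summed to at most 2.10 FPKM. The 7 fibroblast markers summed to 72.6 and 59.1 FPKM in MKN1 and to 43.5 and 28.4 FPKM in AGS, with COL1A2 at 0 throughout. COL1A1 was at 43.8 and 35.0 FPKM in MKN1 and at 29.3 and 15.8 FPKM in AGS. COL3A1 was at 20.2 and 17.4 FPKM in MKN1, and PDGFRA at 12.7 and 12.2 FPKM in AGS. The part of all these markers in the results below was not tested. In bulk RNA, fewer cells of a type and less RNA per cell cannot be told apart.

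The promoter sequences shown here are stretches of epithelial genes with E-box words and stretches of EMT genes with their CpG dinucleotides. Further below are microRNA seed matches in ZEB1 and ZEB2. The promoter windows are from RefSeq on GRCh38.p14 and run from 250 bases before to 50 bases after a transcript start. CRB3, a polarity gene, and CLDN7, a tight junction claudin, are printed because each has a window with 5 CAGGTG or CACCTG words (the same word read on either strand), a number reached by 0.106% of 27305 genes. The 250 bases before the start are given with these E-boxes in capitals, 5 of them in CRB3 at chr19:6464021-6464270 (forward strand) and 4 in CLDN7 at chr17:7262479-7262728 (reverse strand).
CRB3: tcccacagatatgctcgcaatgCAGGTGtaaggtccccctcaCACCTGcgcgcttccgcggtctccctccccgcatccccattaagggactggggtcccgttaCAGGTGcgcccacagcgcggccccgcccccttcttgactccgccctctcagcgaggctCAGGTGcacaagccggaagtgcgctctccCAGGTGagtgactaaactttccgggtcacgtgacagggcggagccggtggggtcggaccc
CLDN7: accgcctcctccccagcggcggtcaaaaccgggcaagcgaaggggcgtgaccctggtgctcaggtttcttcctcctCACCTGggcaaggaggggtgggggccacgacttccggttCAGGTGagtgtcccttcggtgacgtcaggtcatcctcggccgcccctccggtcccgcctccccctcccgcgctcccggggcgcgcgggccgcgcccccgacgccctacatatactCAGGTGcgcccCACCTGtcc

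Of 30 epithelial genes listed as repressed by ZEB, SNAI or TWIST factors, 16 had a RefSeq window and 13 of these held at least 1 such E-box, where 24.1% of all genes with a window did. A gene can have several windows, and a match is a description, not a binding site. Of the 9 EMT genes, CDH2, VIM, ZEB1, ZEB2 and TWIST2 had windows, and ZEB1 alone among them held E-boxes, in 2 of its 7 windows. The stretches of 150 bases before the start of 4 of them are printed because these genes were far lower in AGS than in MKN1, and capitals mark CpG dinucleotides, the bases at which DNA can be methylated. They are CDH2 at chr18:28177131-28177280 (reverse strand), VIM at chr10:17228091-17228240 (forward), ZEB2 at chr2:144520120-144520269 (reverse) and TWIST2 at chr2:238847935-238848084 (forward).
CDH2: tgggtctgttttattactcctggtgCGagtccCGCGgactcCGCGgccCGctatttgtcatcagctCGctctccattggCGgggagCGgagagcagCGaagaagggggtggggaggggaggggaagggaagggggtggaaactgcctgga
VIM: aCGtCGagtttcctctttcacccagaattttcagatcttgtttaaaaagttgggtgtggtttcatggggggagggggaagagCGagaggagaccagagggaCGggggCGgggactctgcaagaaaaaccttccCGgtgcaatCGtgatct
ZEB2: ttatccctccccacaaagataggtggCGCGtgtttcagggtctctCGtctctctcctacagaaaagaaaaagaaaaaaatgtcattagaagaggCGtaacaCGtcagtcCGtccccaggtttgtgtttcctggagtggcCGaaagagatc
TWIST2: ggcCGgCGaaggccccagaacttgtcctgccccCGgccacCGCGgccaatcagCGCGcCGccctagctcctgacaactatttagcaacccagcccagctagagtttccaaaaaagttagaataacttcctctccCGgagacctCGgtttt

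The full windows of 300 bases that these stretches come from held 29 CpG in TWIST2, 23 in CDH2, 14 in ZEB2 and 10 in VIM, where the median of all 35116 windows was 14. A window with at least as many CpG was found in 24.2%, 35.8%, 50.3% and 56.4% of all windows in the same order, so high CpG content was not shared by the 4 genes. For each gene the window with most CpG was taken, and another window of CDH2 held 4. ZEB1, also far lower in AGS but not printed, held from 7 to 35 CpG in its windows. Methylation was not measured.

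Of the 6 factors, 5 were expressed in MKN1 and at or near 0 in AGS, and 1 was expressed in both lines. TWIST2 was at 24.1 FPKM with siHOXB9 and 24.6 FPKM with siScramble in MKN1, against 0.0872 FPKM with siHOXB9 and a listed 0 with siScramble in AGS. TWIST1 was at 14.5 and 14.3 FPKM in MKN1, against 0.243 FPKM and 0 in AGS, in the same order of siRNA. The MKN1 libraries were thus far above the AGS libraries for both TWIST genes, and the siRNAs differed little within MKN1.

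ZEB1 was at 7.24 FPKM with siHOXB9 and 7.61 FPKM with siScramble in MKN1, against 0.0289 and 0.309 FPKM in AGS. ZEB2 was at 4.11 and 3.61 FPKM in MKN1 and was listed at 0 in both AGS libraries. SNAI2, also called Slug, was at 3.81 and 3.67 FPKM in MKN1 and likewise at 0 in AGS. None of these 3 genes reached 1 FPKM in AGS.

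SNAI1, also called Snail, was the exception. It was at 6.29 FPKM with siHOXB9 and 5.15 FPKM with siScramble in MKN1, against 4.19 FPKM with siHOXB9 and 5.18 FPKM with siScramble in AGS, so the lines overlapped. In AGS it was the only one of the 6 factors at 1 FPKM or more and made up 92.1% of their summed FPKM with siHOXB9 and 94.4% with siScramble. In MKN1 all 6 factors exceeded 1 FPKM, and SNAI1 made up 10.5% of the sum with siHOXB9 and 8.74% with siScramble. The 6 factors together summed to 60.1 and 58.9 FPKM in MKN1 and to 4.55 and 5.49 FPKM in AGS (siHOXB9 and siScramble).

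VIM, the intermediate filament of mesenchymal cells, had the largest difference of the 9 genes on the log2(FPKM + 1) scale. It was at 461 FPKM with siHOXB9 and 430 FPKM with siScramble in MKN1, against 2.12 FPKM and 1.97 FPKM in AGS, a ratio of line means of 218. By level VIM stood at rank 270 and 286 of all 57815 rows in MKN1 and at rank 11414 and 11599 in AGS. CDH2 was at 7.46 FPKM with siHOXB9 and 22.1 FPKM with siScramble in MKN1, against 0.230 and 0.215 FPKM in AGS.

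CDH1 went the other way, at a low level. It was at 0.285 FPKM with siHOXB9 and 0.0752 FPKM with siScramble in MKN1, against 3.28 FPKM with siHOXB9 and 1.63 FPKM with siScramble in AGS. The ratio of AGS to MKN1 means was 13.6. With the depth above and the longest coding transcript, the MKN1 values correspond to an estimated 14.0 and 4.0 fragments, and the AGS values to 190 and 97.8, so the ratio rests on few fragments in MKN1. N-cadherin exceeded E-cadherin 26.2-fold with siHOXB9 and 294-fold with siScramble in MKN1, whereas E-cadherin exceeded N-cadherin 14.3-fold with siHOXB9 and 7.58-fold with siScramble in AGS.

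**Figure D1:**
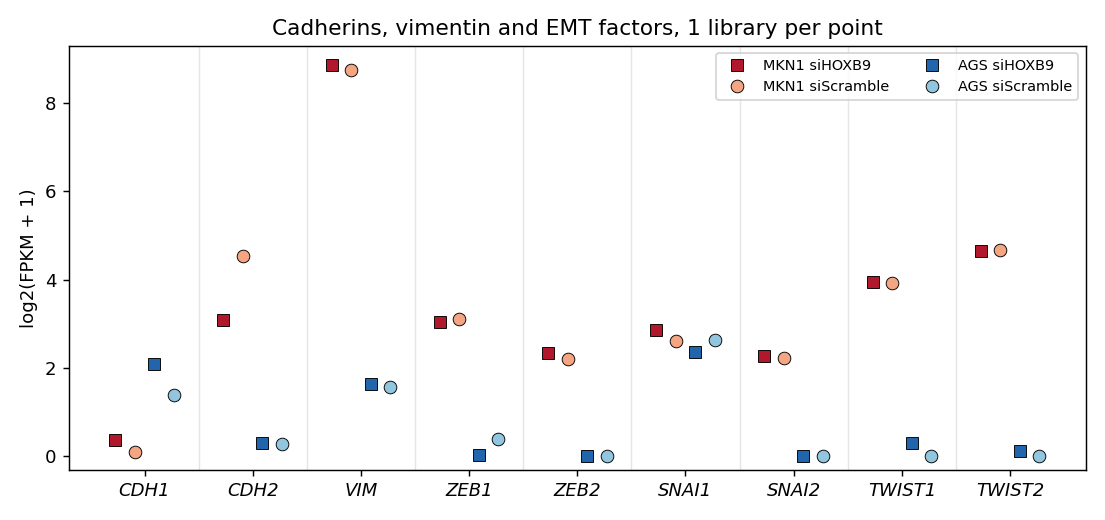
Levels of the 9 genes as log2(FPKM + 1), 1 point per library, with MKN1 in red shades and AGS in blue shades, squares for siHOXB9 and circles for siScramble. CDH2, VIM, ZEB1, ZEB2, SNAI2, TWIST1 and TWIST2 lie higher in both MKN1 libraries, CDH1 lies higher in both AGS libraries, and SNAI1 overlaps.

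The order of mean FPKM in MKN1 was VIM at 445, TWIST2 at 24.3, CDH2 at 14.8, TWIST1 at 14.4, ZEB1 at 7.42, SNAI1 at 5.72, ZEB2 at 3.86, SNAI2 at 3.74 and CDH1 at 0.18. The values of CDH2 spanned those of TWIST1 and overlapped those of ZEB1, and those of ZEB2 spanned those of SNAI2, so these genes were not separated. In AGS the order was SNAI1 at 4.68, CDH1 at 2.45, VIM at 2.05, CDH2 at 0.222, ZEB1 at 0.169, TWIST1 at 0.122 and TWIST2 at 0.0436, with ZEB2 and SNAI2 at 0. The AGS values of CDH1 spanned those of VIM, and those of ZEB1 overlapped those of CDH2, TWIST1 and TWIST2. Those of TWIST1 also overlapped those of CDH2 and TWIST2.

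To test the difference between the lines, limma was fitted to log2(FPKM + 1) of 13758 genes with terms for line and siRNA, and a gene was called at an adjusted p under 0.05 and a difference of at least 1 on that scale. This scale understates the change of low genes, and for genes listed at 0 the value depends on the added 1. Of all genes tested 16.2% were called higher and 20.9% lower in MKN1 than in AGS, with a median difference of -0.10. Of the 9 EMT genes 7 were called higher and 1 lower. A gene entered the fit with at least 1 FPKM in 2 libraries, which VIM and SNAI1 reached in all 4 libraries and the other 7 genes in 1 line alone, so for these 7 the filter favours a difference and the count is a description. Nothing in the labels says that libraries came from separate cultures, and differences between them may be in part technical. The p-values rest on 1 residual degree of freedom, the disagreement of the siRNA change between the lines, with a variance trend over all genes. They do not measure a spread between libraries of the same line and siRNA.

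VIM differed by 7.20 (SE 0.174, adjusted p = 6.04e-07), TWIST2 by 4.60 (SE 0.214, adjusted p = 3.96e-06) and TWIST1 by 3.79 (SE 0.220, adjusted p = 1.05e-05). ZEB1 differed by 2.86 (SE 0.219, adjusted p = 3.99e-05), ZEB2 by 2.28 (SE 0.212, adjusted p = 0.000105) and SNAI2 by 2.25 (SE 0.210, adjusted p = 0.000108). CDH2 was higher by 3.52 (SE 0.347, adjusted p = 0.000142) and CDH1 lower, at -1.51 (SE 0.225, adjusted p = 0.00103). SNAI1 did not pass, at 0.24 (SE 0.231, adjusted p = 0.396).

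The CDH1 and CDH2 calls were less firm than the others. Without a filter on low values the adjusted p in limma was 0.0600 for CDH1 and 0.0685 for CDH2. The other 6 called genes then passed only narrowly, at 0.0434 to 0.0435. For CDH1 it was 0.0898 without the MKN1 siHOXB9 library and 0.115 without the MKN1 siScramble library, and for CDH2 it was 0.0626 without the AGS siHOXB9 library and 0.0596 without the AGS siScramble library, in fits without the siRNA term. Over all 4 fits that leave out 1 library, the difference ranged from -1.87 (without AGS siScramble) to -1.16 (without AGS siHOXB9) for CDH1, and from 2.79 (without MKN1 siScramble) to 4.24 (without MKN1 siHOXB9) for CDH2.

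Genes listed as repressed by the EMT factors were called lower in MKN1 with 1 exception among those tested. This list and those below were chosen with earlier results of these data known, so their counts are descriptions. Of 29 tested, 28 were called lower and none higher, with a median difference of -3.86, where 20.9% of all genes were called lower (median -0.10). The filter favours a difference here too, since 13 of the 29 reached 1 FPKM in AGS alone. Of the 16 that reached it in both lines, 15 were called lower. The matching share of all genes at 1 FPKM in both lines was not computed, here or for the lists below. SPINT2, a membrane inhibitor of serine proteases, was at 2.13 and 2.27 FPKM in MKN1, against 1337 and 1434 FPKM in AGS (siHOXB9 and siScramble). PRSS8, the protease prostasin, differed by -7.84, RAB25, a GTPase of apical recycling, by -7.21 and ST14, the protease matriptase, by -7.21. All 3 had at most 1.05 FPKM in MKN1 and at least 238 FPKM in AGS. Of the genes whose promoters are printed above, CRB3 was at 1.99 and 0.850 FPKM in MKN1, against 78.3 and 85.3 FPKM in AGS, and CLDN7 was at 3.21 FPKM in both MKN1 libraries, against 307 and 403 FPKM in AGS. The exception was PKP3, a desmosomal plakophilin, with 95.2 and 90.6 FPKM in MKN1 against 132 and 155 FPKM in AGS (difference -0.62, adjusted p = 0.0173, under the size rule).

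Transcription factors that hold cells in an epithelial state followed the same direction. Of 14 tested, 12 were called lower in MKN1 and none higher, with a median of -3.19. Among all genes 20.9% were called lower and 16.2% higher. Of these 14, 6 reached 1 FPKM in AGS alone, and of the 8 that reached it in both lines 6 were called lower. CDX2, the intestinal homeobox factor, was at 1.76 and 0.516 FPKM in MKN1 against 107 and 74.8 FPKM in AGS. HNF4A differed by -5.40, GATA6 by -4.81 and OVOL2, a zinc finger repressor of ZEB1, by -4.76. Some of these genes, such as OVOL2 and the GRHL genes, stand in both lists.

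Of 37 mesenchymal genes tested, 28 were called higher and 4 lower in MKN1, with a median of 2.95, where 16.2% of all genes were called higher and 20.9% lower. The filter was passed through MKN1 alone by 18 of the 37 and through AGS alone by 1, and of the 18 that reached 1 FPKM in both lines 11 were called higher and 3 lower. SPARC, a matrix glycoprotein, was at 329 and 309 FPKM in MKN1 against 1.44 and 0.417 FPKM in AGS. COL5A1, a fibrillar collagen chain, differed by 7.33, FSTL1, a secreted glycoprotein, by 7.28 and TGFBI, a TGF-beta-induced matrix protein, by 6.77. The 4 genes called lower were MMP14, COL6A1, ACTA2 and WNT5B, named after their values were seen. MMP14, the membrane-anchored collagenase, was at 0.823 and 0.669 FPKM in MKN1 against 192 and 162 FPKM in AGS.

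Other factors linked to EMT were mixed, with 9 of 18 called higher and 5 lower in MKN1 (median 0.66), and 3 higher and 4 lower among the 11 that reached 1 FPKM in both lines. The shares of all genes tested were 16.2% higher and 20.9% lower. FOXC2 and FOXF2, forkhead factors, differed by 4.61 and 4.43, and PRRX2, a homeobox factor, by 3.42, whereas SOX9 was lower by a difference of -3.71. Of the E-proteins that partner TWIST factors, TCF3 lay between 256 and 292 FPKM in all libraries (difference -0.02). Of 24 cofactors, kinases and ubiquitin ligases tested, 1 was called higher and 3 lower, and 20 were not called. The 1 called higher, LOXL2, entered the fit through MKN1 alone. Of the 23 that reached 1 FPKM in both lines, 0 were called higher and 3 lower. LOXL2, a lysyl oxidase-like partner of SNAI1, was at 41.5 and 133 FPKM in MKN1 against 0.478 and 0.0701 FPKM in AGS, and ID2, an inhibitor of helix-loop-helix factors, at 6.67 and 10.6 FPKM against 112 and 114 FPKM. PAK1, a kinase that phosphorylates SNAI1, differed by -2.08 and FBXW7, a ubiquitin ligase subunit, by -1.13.

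**Figure D2:**
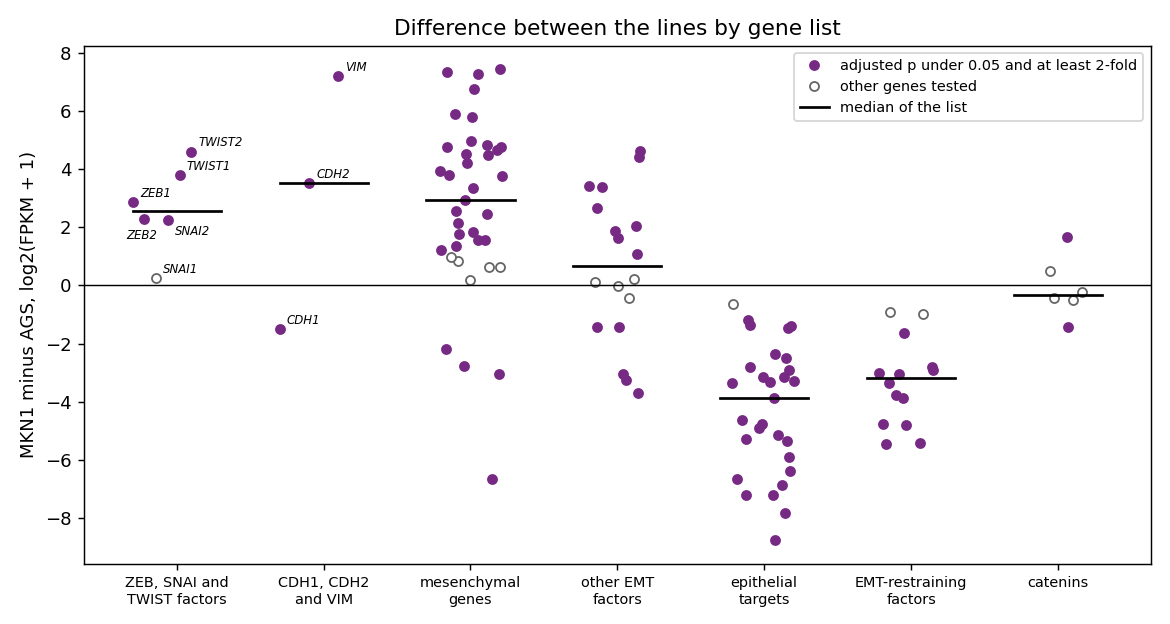
Difference between MKN1 and AGS in log2(FPKM + 1) for each gene tested, by list, with filled points for genes past an adjusted p of 0.05 in limma and a 2-fold size and a bar at the list median. The epithelial targets lie below 0 (median -3.86) and most mesenchymal genes above it (median 2.95), and SNAI1 is the only open point among the 9 named genes.

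Other cadherins also differed between the lines. CDH17, liver-intestine cadherin, was at 0.0274 and 0.0447 FPKM in MKN1 and at 114 and 76.0 FPKM in AGS, where it was far above CDH1. CDH13, a cadherin anchored to the membrane by a lipid, was at 41.3 and 33.7 FPKM in MKN1, above CDH2, and listed at 0 in AGS. CDH11 was listed at 0 in MKN1 and was at 1.03 and 1.64 FPKM in AGS. CDH11, CDH13 and CDH17 each entered the fit through 1 line alone, so their calls are descriptions. CDH24 was at 12.5 and 10.5 FPKM in MKN1 against 15.4 and 17.2 FPKM in AGS, and the difference of -0.47 did not pass in limma (adjusted p = 0.0854). Of 21 cadherins other than CDH1 and CDH2, 15 stayed under 1 FPKM in every library. The catenins that link cadherins to actin were expressed in both lines, with CTNNA1 (alpha-catenin) at 203 and 198 FPKM in MKN1 against 156 and 131 FPKM in AGS, and CTNNB1 (beta-catenin) at 81.1 and 76.9 FPKM against 118 and 106 FPKM. Of 6 genes tested in a list of catenins and vinculin, CTNND1, the p120 catenin that binds cadherin tails, was called lower (-1.43). VCL, vinculin, was called higher (1.66), and 4 were not called. The shares of all genes tested were 20.9% lower and 16.2% higher.

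**Figure D3:**
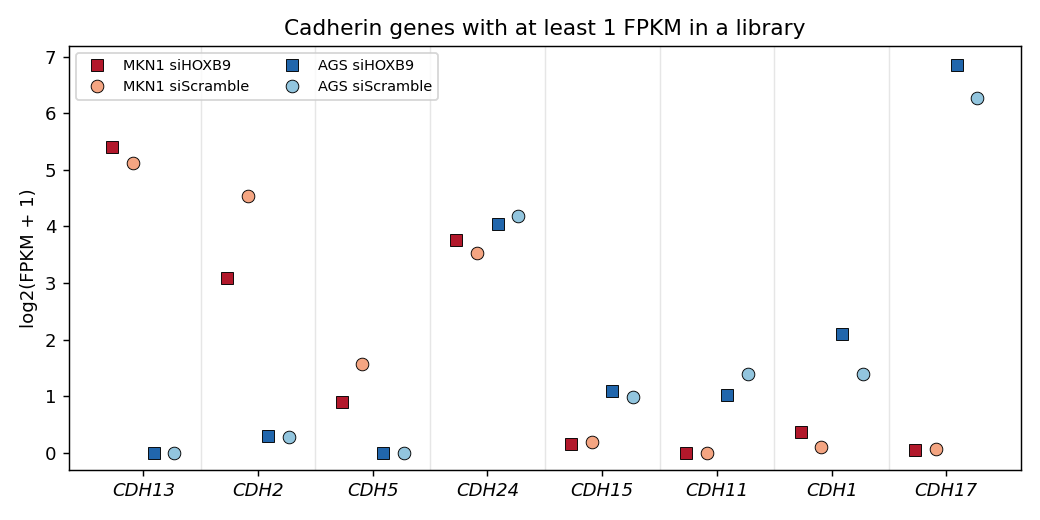
Levels of the cadherin genes that reached 1 FPKM, as log2(FPKM + 1), with 1 point per library and the genes ordered by the difference between MKN1 and AGS. CDH13 and CDH2 lie high in MKN1, CDH17 lies high in AGS at 114 and 76.0 FPKM, and CDH24 lies between 10.5 and 17.2 FPKM in all 4 libraries.

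Among intermediate filaments, KRT19 followed the epithelial genes and several keratins followed VIM. KRT19 was at 2.66 and 2.02 FPKM in MKN1 against 1001 and 838 FPKM in AGS. KRT7 was at 1629 and 1710 FPKM in MKN1 against 4.98 and 3.73 FPKM in AGS, KRT81 at 811 and 876 FPKM against 1.44 and 2.26 FPKM, and KRT17 at 948 and 812 FPKM against 24.9 and 10.6 FPKM. Of 15 tested in this list, 7 were called higher and 4 lower in MKN1, where 16.2% of all genes were called higher and 20.9% lower. The filter was passed through MKN1 alone by 2 of the 15 and through AGS alone by 1. Of the 12 that reached 1 FPKM in both lines, 5 were called higher and 3 lower. In the TGF-beta pathway, an inducer of EMT, 4 of 15 genes were called higher and 3 lower, where the shares of all genes were 16.2% and 20.9%. Of the 15, 2 (ENG and TGFB2) reached 1 FPKM in MKN1 alone. Of the 13 that reached it in both lines, 2 were called higher and 3 lower. ENG, the coreceptor endoglin, differed by 6.03, the ligand gene TGFB2 by 4.03, SMAD2, a signal transducer, by 2.08 and BMP4 by -3.33.

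The miR-200 side could be followed through the host transcript of miR-200c and miR-141 (MIR200CHG in RefSeq, under its synonym U47924.27 in the table). It was listed at 0 in both MKN1 libraries and was at 6.51 FPKM with siHOXB9 and 4.39 FPKM with siScramble in AGS, a difference of -2.67 on the log2 scale. It entered the fit through AGS alone, so this value is a description. The 5 hairpin genes of the family were listed at 0 in all libraries, and mature microRNAs were not measured. The mature forms, from RefSeq on GRCh38.p14 at chr12:6963742-6963764 and chr12:6964155-6964176, are printed with the seed (bases 2 to 8) in capitals.
miR-200c-3p: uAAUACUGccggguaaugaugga
miR-141-3p: uAACACUGucugguaaagaugg

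The longest coding transcript of ZEB1 in GENCODE release 29 held 6 matches to the miR-200c seed (CAGTATT) and 3 to the miR-141 seed (CAGTGTT) in its 3′ UTR of 2549 bases, and that of ZEB2 held 5 and 4 in 5370 bases. At least 1 match was found in 15.98% of 19113 genes for miR-200c and in 18.1% for miR-141, and 6 or more miR-200c matches in 0.0157%, over 3′ UTRs with a median of 1038 bases, so that length enters these counts. SNAI2 held 1 miR-200c match, and CDH1, CDH2, VIM, SNAI1, TWIST1 and TWIST2 held none of either kind. One match of each kind is printed from the GRCh38 transcripts with the match in capitals, for ZEB1 at chr10:31527624-31527643 and chr10:31528037-31528056 (forward strand) and for ZEB2 at chr2:144389049-144389068 and chr2:144389233-144389252 (reverse strand).
ZEB1 site for miR-200c: ttatcttatCAGTATTatca
ZEB1 site for miR-141: catcagaatCAGTGTTtgtg
ZEB2 site for miR-200c: accatacatCAGTATTttta
ZEB2 site for miR-141: aattttgtaCAGTGTTaagg

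The knockdown of HOXB9 was the study's own comparison, and with 1 library per siRNA in each line it allows no test within a line. In MKN1, CDH2 stood apart from the other genes. Its level with siHOXB9 was 33.8% of that with siScramble (7.46 against 22.1 FPKM, an estimated 323 against 1034 fragments), a log2 change of -1.45 with 1 FPKM added. It was the only one of the 8 EMT genes measured in MKN1 at 1 FPKM or more to pass the 2-fold size rule. That rule was passed downward by 1.94% and upward by 2.1% of 13122 genes in MKN1, with a median change of 0.09.

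The 7 other measured genes kept within 0.25 of 0 in MKN1. SNAI1 had a change of 0.25, ZEB2 of 0.15, VIM of 0.10, SNAI2 of 0.04, TWIST1 of 0.02, TWIST2 of -0.03 and ZEB1 of -0.06. SNAI2 and TWIST1 turned slightly negative when libraries were rescaled to a common total, centred on the median gene or quantile normalized (-0.07 to -0.02), so their direction depends on the scaling. CDH1, under 1 FPKM in both MKN1 libraries, had a change of 0.26 on an estimated 14.0 against 4.0 fragments.

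In AGS 3 of the 9 genes were measured at 1 FPKM or more, and none passed the size rule, which 1.68% of 13252 genes passed upward and 2.21% downward (median change -0.06). CDH1 was 2.02 times as high with siHOXB9 as with siScramble by FPKM (3.28 against 1.63), and its log2 change with 1 FPKM added was 0.71, under the limit. SNAI1 had a change of -0.25 and VIM of 0.07. ZEB1, under 1 FPKM, was at 0.0289 FPKM with siHOXB9 and 0.309 FPKM with siScramble, an estimated 2.17 against 24.1 fragments. ZEB1-AS1, which shares exon bases with ZEB1 on the opposite strand, was at 2.54 and 5.60 FPKM in the same libraries. The labels describe no strand-specific step, so reads of the overlap cannot be told apart. The same holds for VIM and VIM-AS1, which was at 223 and 197 FPKM in MKN1 and at 1.14 and 0.507 FPKM in AGS.

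**Figure D4:**
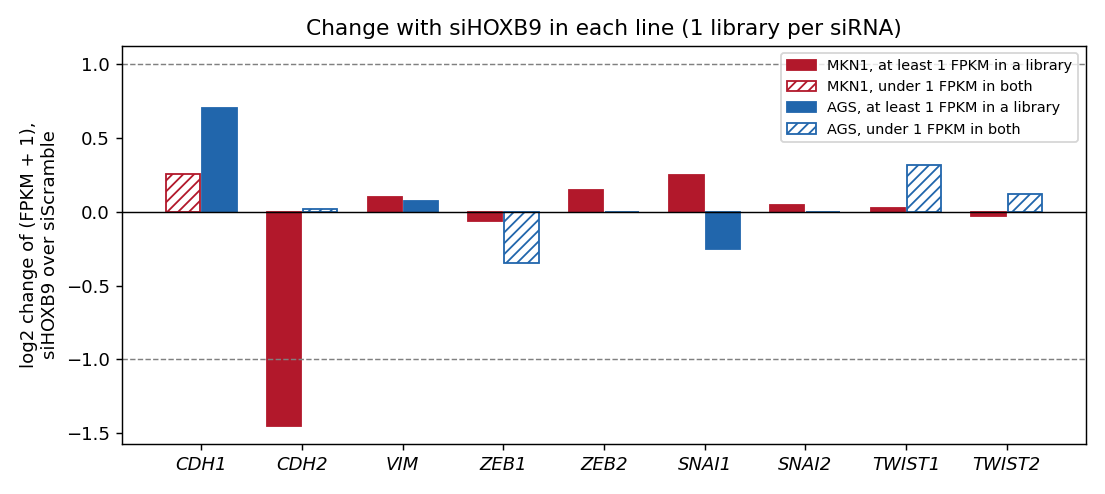
Log2 change of (FPKM + 1) with siHOXB9 over siScramble for each of the 9 genes in MKN1 (red) and AGS (blue), with hatched bars for genes under 1 FPKM in both libraries of the line and dashed lines at the 2-fold rule. CDH2 in MKN1 (-1.45) is the only bar past a dashed line, and CDH1 in AGS (0.71) is next in size.

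Over both lines, the limma fit called none of the 9 genes for siHOXB9 against siScramble, at an adjusted p under 0.05 or at an unadjusted one, where 1 of 13758 genes (0.00727%) was called and 980 had an unadjusted p under 0.05. The fit has 1 residual degree of freedom, the disagreement of the lines. HOXB9, the target of the siRNA, was not called in this limma fit either (estimate -1.25, SE 0.268, adjusted p = 0.355). CDH2 had an estimate of -0.72 (SE 0.347, adjusted p = 0.726), from a change of -1.45 in MKN1 and 0.02 in AGS, where CDH2 stayed under 1 FPKM. CDH1 had an estimate of 0.48 (SE 0.225, adjusted p = 0.716), with positive values in both lines. The other 7 genes had estimates between -0.21 (ZEB1) and 0.17 (TWIST1). With 0.1 FPKM added in place of 1 the estimate was -0.87 for ZEB1, 0.90 for TWIST1, 0.44 for TWIST2 and 1.05 for CDH1, with adjusted p from 0.806 to 0.879, so the size for genes near 0 in 1 line depends on the value added. Whether the knockdown acted differently in the lines could not be tested, since that term leaves no residual degree of freedom.

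The wider EMT lists are described by the same 2-fold rule with siHOXB9, and counts of 1 or 2 genes are not set apart from the shares of all genes (2.1% higher and 1.94% lower in MKN1, 1.68% and 2.21% in AGS). Of 38 mesenchymal genes measured in MKN1, 1 was higher and 1 lower: ITGA5, integrin alpha 5, at 150.5 FPKM with siHOXB9 and 72.5 FPKM with siScramble, and LOXL2 at 41.5 against 133 FPKM (log2 -1.66). The list's median change was 0.09, that of all genes. Of 17 other EMT factors in MKN1, 2 were higher, HMGA2 at 22.8 against 3.91 FPKM (log2 2.28) and TCF4, an E-protein, at 8.56 against 3.55 FPKM (log2 1.07). TGFBR2, a TGF-beta receptor, was at 27.2 FPKM with siHOXB9 and 12.9 FPKM with siScramble in MKN1. None of the 16 epithelial targets measured in MKN1 and none of the 29 in AGS passed the rule, with medians of 0.16 and 0.03. In AGS 1 of 14 restraining factors was lower, EHF, an epithelial ETS factor, at 1.90 against 5.38 FPKM (log2 -1.14). Of 23 cofactors and ligases in AGS 1 was higher, BTRC, a ubiquitin ligase subunit that acts on SNAI1, at 13.6 against 5.19 FPKM (log2 1.23). Of 14 intermediate filament genes in AGS 2 were higher, KRT17 (log2 1.16) and KRT20, at 2.70 against 0.364 FPKM. No gene of these lists was called over both lines.

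Genes with the nearest profile were sought among 9608 coding genes that reached 5 FPKM in some library, by Euclidean distance between centred log2(FPKM + 1) values over the 4 libraries. With so few libraries the measure mostly reflects the difference between the lines. Nearest to CDH2 were NEGR1 (0.35), PLAC8 (0.38) and FABP3 (0.52). NEGR1, a neuronal adhesion molecule, was at 8.35 FPKM with siHOXB9 and 20.2 FPKM with siScramble in MKN1 and close to 0 in AGS, and PLAC8 was at 31.1 against 63.3 FPKM in MKN1 and 3.67 against 2.80 FPKM in AGS. Nearest to CDH1 were PTPN21 (0.10), ASAP3 (0.13) and FLVCR1 (0.14), with PTPN21, a tyrosine phosphatase, at 2.58 and 2.21 FPKM in MKN1 and 12.03 and 6.61 FPKM in AGS. VIM was nearest to COL5A1, SRGN and LY6K (0.20 to 0.23), and TWIST2 to SGCE, KCNJ12 and PCSK1N (0.05 to 0.09). SNAI1 had NARS, MAPKAPK5 and GMCL1 as nearest genes (all 0.04), TWIST1 had LPCAT2, BCAR3 and STAT5A, and ZEB1 had SLC6A15, CCT5 and THSD4. ZEB2 and SNAI2 shared IKBIP and CTPS1 among their nearest genes, with DNAH17 for ZEB2 and SALL4 for SNAI2.

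By GENCODE release 29 on GRCh38, CDH1 lies on chromosome 16 from 68737225 to 68835548 (forward strand), CDH2 on chromosome 18 from 27950966 to 28177446 (reverse) and VIM on chromosome 10 from 17228259 to 17237593 (forward). ZEB1 lies on chromosome 10 from 31318495 to 31529814 (forward), ZEB2 on chromosome 2 from 144364364 to 144524583 (reverse) and SNAI1 on chromosome 20 from 49982999 to 49988886 (forward). TWIST1 lies on chromosome 7 from 19020991 to 19117672 (reverse) and TWIST2 on chromosome 2 from 238848032 to 238910543 (forward). SNAI1 and TWIST2 share no exon bases with another gene, nor does SNAI2, and the other 6 each overlap an antisense transcript.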

How the data were processed

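Poly-A RNA was sequenced from 4 libraries of 2 cell lines. The authors deposited 1 FPKM column per library, named FPKM per the labels, with GRCh38 and hg38 as genome builds per the submitters' processing notes. For the aligner, counting tool and annotation, the entry is: not given in the sources used here. Columns sum to 777152 to 831098 FPKM, so they were not scaled to a common total. A design written for FPKM was used as planned. Members and lists were chosen with earlier results of these data known.

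Changes within a line are log2((siHOXB9 + 1)/(siScramble + 1)), with a 2-fold size rule among genes with at least 1 FPKM in the line. Tests used limma 3.58.1 in R 4.3.3 on log2(FPKM + 1), with line and siRNA as terms, an intensity trend, at least 1 FPKM in 2 libraries and Benjamini-Hochberg adjustment over all genes, two-sided. The fit was tested on simulated data. Symbols without a row were looked up by RefSeq synonym. Depth came from low values of genes with 1 transcript, shortened by 260 bases, of which 63.2% to 66.2% lay within 0.05 of a whole fragment, so fragment numbers are estimates. Genes named are the 9, HOXB9, up to 4 per list by size of change or of difference between lines, and the 3 nearest profiles, with a few others, such as EPCAM, the catenins, TCF3, PKP3 and the promoter examples, added after their values were seen. Alternatives were another pseudocount (0.1), filter, scaling, size rule, variance model, feature set, model terms and leaving out a library.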

Additional observations from a re-analysis of the deposited data

Results flagged for a closer look

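SNAI1, which reached 1 FPKM in all libraries, had changes of opposite sign with siHOXB9 in the 2 lines. Its log2 change was 0.25 in MKN1 (6.29 FPKM with siHOXB9 and 5.15 FPKM with siScramble) and -0.25 in AGS (4.19 FPKM with siHOXB9 and 5.18 FPKM with siScramble). The changes differ by 0.50 on the log2 scale, both are under the 2-fold rule, and the difference was not tested, with 1 library per line and siRNA.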

How the results depend on the processing

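The FPKM columns give no replicates, so a change within a line stands on 1 library per siRNA, and fragment estimates limit CDH1 in MKN1 and 6 of the genes in AGS. The labels carry no replicate numbers, and the knockdown fit paired the siRNAs within each line through its line term. Without that term the SE of the 9 knockdown estimates was 0.447 to 3.67, against 0.174 to 0.347 with it, and none of the 9 was called in either. CDH2 in MKN1 kept its side of the 2-fold rule at -1.55 to -1.45 under every other pseudocount, filter, scaling and size rule in which it had a value. Among coding genes listed in 1 row whose exons overlap no other gene, where SNAI1, SNAI2 and TWIST2 alone remain, the count lower in MKN1 with siHOXB9 was 0 in place of 1. With a 1.5-fold rule 1 gene, CDH1, was higher in AGS in place of 0. For MKN1 against AGS that feature set gave 2 genes higher in place of 7 and 0 lower in place of 1, and the lower count was also 0 with no filter and with at least 5 FPKM, where CDH1 is not tested. Leaving out a library gave 6 to 7 higher and 0 to 1 lower. With 0.1 FPKM added in place of 1, the difference between the lines was -3.22 for CDH1, 5.33 for CDH2, 5.03 for ZEB1, 5.30 for ZEB2, 5.26 for SNAI2, 6.29 for TWIST1, 7.48 for TWIST2, 7.70 for VIM and 0.28 for SNAI1, with the same calls. Estimates of the knockdown over both lines near 0 turned sign: SNAI1 to 0.0050 and SNAI2 to -0.0084 after rescaling to a common total, and SNAI2 to -0.010 and TWIST2 to -0.0073 after quantile normalization. The cause was not tested. Over all genes, 223 were higher by the size rule and 293 lower in AGS, against 278 and 235 after rescaling, and 276 and 255 in MKN1, against 205 and 311 after centring. With 0.1 FPKM added these counts were 452 and 585 in AGS and 570 and 455 in MKN1, with at least 5 FPKM 101 and 155, and 128 and 129, and without shared exons 56 and 78, and 75 and 64. For MKN1 against AGS 2229 genes were higher and 2880 lower, against 1271 and 1479 with no filter and 1015 and 1326 without shared exons, and centring moved the median difference to 0.09, against -0.10. Over both lines 1 gene was called, against 8 with at least 5 FPKM and 7 with the robust option.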
